A study of Mus musculus with 46 samples.

Results

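A set of genes for proteins that hepatocytes secrete was followed in mouse liver and in AML12, a mouse hepatocyte cell line, after loss of the long noncoding RNA Falcor (listed as 9030622O22Rik). The 9 genes are Enho, Fgf21, Angptl8, Igf1, Igfbp1, Igfbp2, Fetub, Selenop and Lect2, out of 55774 rows in the liver tables. They were chosen by symbol with their KO against Ctrl and hairpin differences in these same libraries known, so their levels and fold changes below are a description and carry no test. All 9 had a row in each of the 4 tables of the series. A mean value of at least 3, the minimum for the fit across genes, was reached by 8 of the 9 in both liver tables (all but Fgf21) and by 3 of the 9 in the inducible AML12 table (Angptl8, Selenop and Lect2). In the table of conventional hairpins 3 of the 9 (Enho, Angptl8 and Selenop) passed the filter on low counts.

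The series has 46 libraries in 13 groups. Livers labelled Ctrl and Falcor KO were sampled on 2 diets, labelled NCD (4 Ctrl, 4 KO) and HFD (5 Ctrl, 6 KO). Inducible AML12 lines carried a control hairpin (shCtrl) or a hairpin labelled shLinc, which the tag of its labels identifies with Falcor, and each was sampled without doxycycline (Dox), with Dox, and in a further state with the label Restored, with 3 libraries in each group. Titles of the Restored libraries read DoxMinus, and those of the libraries without Dox read NoDox. Restored was taken here as the state after Dox was withdrawn. A further set of AML12 cells carried conventional shCtrl, shFalcor or shZC3H11A hairpins (3 libraries each). ZC3H11A is a zinc finger protein involved in mRNA export. The series asked whether Falcor and ZC3H11A regulate genes together, and how Falcor acts in the liver under physiological and pathological conditions. How the knockout was made, whether it is limited to hepatocytes, the age, sex and feeding state of the mice, and whether replicates are separate animals or cultures are not stated in the labels. Spread between replicates may therefore be technical. In bulk liver, fewer cells of a type and less RNA per cell cannot be told apart.

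Hepatokines are proteins that the liver releases into blood to act on other organs. Insulin-like growth factor 1 is made by hepatocytes when growth hormone binds its receptor, and it circulates bound to binding proteins, of which IGFBP1 is induced by fasting and repressed by insulin. FGF21 is a fasting and stress hormone that needs the co-receptor beta-Klotho. ANGPTL8 is induced by feeding and takes part in the inhibition of lipoprotein lipase. Selenoprotein P, the product of Selenop, carries selenium in plasma, and its messenger RNA is translated through stop codons that are read as selenocysteine.

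Falcor itself was listed at 0 in all 10 KO livers, against 70 to 135 in the NCD and 17 to 27 in the HFD controls. In the inducible lines Falcor read 2 to 3 in the Falcor hairpin line with Dox and 4 to 5 in the control line with Dox. Without Dox the order was the opposite, with 9 to 12 in the Falcor hairpin line against 4 to 6 in the control line, and the Restored state gave 9 to 11 against 4 to 5. The 2 inducible lines differed before the hairpin was induced, and each line difference below is given for all 3 states. In the conventional set Falcor had 11 to 38 counts with shCtrl, 4 to 7 with shFalcor and 3 to 6 with shZC3H11A, and Zc3h11a had 359 to 558, 155 to 374 and 33 to 64 counts. One HFD library stands apart. In KO-6, 3 rows with identical values, listed by identifier without a symbol, took 78.2% of the column, against 22.4 to 56.8% in the HFD controls, so its values for all other genes are low before scaling. Liver values below are therefore scaled values, the deposited value divided by the scale factor of the library. The HFD differences of Enho and Lect2, and the difference of the Selenop effect between diets, are given with and without KO-6. The other HFD differences are not given without KO-6. The 2 liver tables were made and scaled separately, so levels are compared within a diet only.

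Promoter windows are shown for 4 of the genes, chosen after their values were seen: the 3 that passed the filter in the inducible lines and Igfbp1, for its spread between HFD livers. Each shown window held a motif of a known hepatic regulator. For Selenop, the window shown was picked from the windows of the gene because it held the TATA box motif TATAAA. Its match to TATAAA thus follows from that choice, and the other Selenop windows held neither TATAAA nor GTAAACA. Each window runs from 250 bases before to 50 bases after a RefSeq transcription start (GRCm38.p6), and 8 of the 9 genes matched the table. Enho did not. Capitals mark the motif.

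Selenop, chr15:3270727-3271026, + strand, 1 of 3 windows of the gene, with the forkhead factor motif GTAAACA and the TATA box motif TATAAA: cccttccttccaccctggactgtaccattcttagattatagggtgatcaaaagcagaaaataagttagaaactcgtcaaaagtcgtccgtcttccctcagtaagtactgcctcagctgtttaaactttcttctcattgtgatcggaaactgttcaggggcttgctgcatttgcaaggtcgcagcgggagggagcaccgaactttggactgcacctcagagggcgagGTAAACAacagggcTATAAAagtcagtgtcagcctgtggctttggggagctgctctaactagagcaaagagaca
Angptl8, chr9:21835260-21835559, + strand, with TGATGCAA, a motif of ATF4 and C/EBP dimers: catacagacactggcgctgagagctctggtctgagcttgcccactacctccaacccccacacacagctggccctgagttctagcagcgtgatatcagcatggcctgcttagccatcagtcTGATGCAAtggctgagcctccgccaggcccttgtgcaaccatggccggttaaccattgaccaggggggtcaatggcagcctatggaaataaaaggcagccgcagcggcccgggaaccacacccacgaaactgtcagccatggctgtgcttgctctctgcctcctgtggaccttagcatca
Igfbp1, chr11:7197537-7197836, + strand, with CAAAACA, the core of the insulin response element: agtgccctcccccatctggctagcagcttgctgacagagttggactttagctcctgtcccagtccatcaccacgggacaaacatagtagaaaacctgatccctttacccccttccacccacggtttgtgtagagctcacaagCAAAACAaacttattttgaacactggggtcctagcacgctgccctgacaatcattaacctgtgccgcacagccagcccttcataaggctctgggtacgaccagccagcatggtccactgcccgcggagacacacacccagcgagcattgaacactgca
Lect2, chr13:56548489-56548788, - strand, with ATCAAAG, the motif of TCF/LEF factors: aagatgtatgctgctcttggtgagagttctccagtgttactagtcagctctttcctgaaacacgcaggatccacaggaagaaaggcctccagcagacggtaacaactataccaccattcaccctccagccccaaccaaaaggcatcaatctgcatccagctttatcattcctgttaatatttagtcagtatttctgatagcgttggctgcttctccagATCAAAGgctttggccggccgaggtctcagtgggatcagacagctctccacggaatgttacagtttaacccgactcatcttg

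These motifs and CACGTG, the E-box of MLXIPL and clock factors, were searched on both strands of the 12 windows of the 8 genes and of all 32851 windows of the table. Of all windows, 13.6% held TATAAA, 3.65% GTAAACA, 7.15% CACGTG, 0.895% TGATGCAA, 6.28% CAAAACA and 3.73% ATCAAAG. Among the 9 genes TATAAA was also found for Fetub and Fgf21, GTAAACA for Fetub, TGATGCAA for Fgf21 and CACGTG for Fgf21 and Igfbp2. No printed motif overlapped another. A match is a description of the letters and not of a bound site.

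In HFD liver, Enho was the member that separated KO from Ctrl. The gene encodes adropin, a secreted peptide of energy balance. Scaled values were 0.869, 3.41, 4.29, 3.33 and 3.30 in the 5 controls, and the 6 KO livers ran from 8.74 through a median of 13.3 to 16.7. All 6 KO livers were above all 5 controls, with means of 3.04 ± 1.28 (SD, n = 5) and 12.7 ± 3.00 (SD, n = 6). The fold change was 3.51 on the scale of log2(value + 1), a log2 difference of 1.81 ± 0.26 (SE), with a 95% interval of 1.25 to 2.37. Before scaling, the groups touched, since Ctrl-4 and KO-6 were both deposited at 6. Without KO-6 the log2 difference was 1.81 ± 0.29 (SE), and leaving out any one library gave 1.55 to 1.92. The summed level of the 6 hepatocyte markers overlapped between the groups (18227 to 23639 in the controls and 17659 to 23574 in the KO livers). That of 6 stellate cell and fibroblast markers did not, at 31.8 to 53.0 in the controls and 20.5 to 30.4 in the KO livers, with 2 of 6 at a mean of at least 3 and none at 0 in a whole group. Its part in the Enho difference was not tested.

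**Figure D1:**
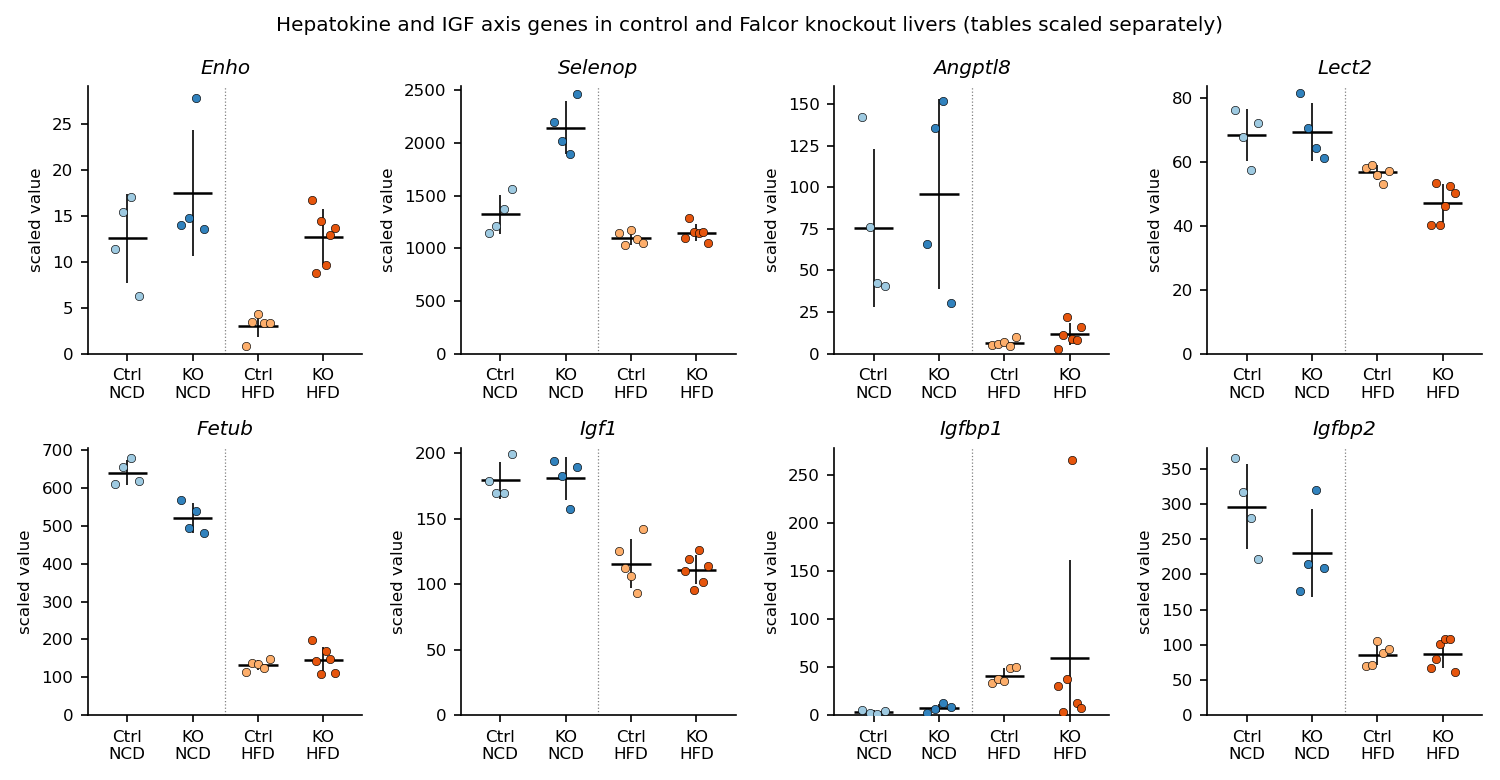
Scaled values (deposited value over library scale factor, y axis, linear) of 8 genes in the control (Ctrl) and Falcor knockout (KO) livers on NCD and HFD; each point is a library, horizontal lines are means and vertical bars 1 SD, cut at 0. Enho in HFD and Selenop and Fetub in NCD are the panels where the KO and Ctrl points do not overlap, and 1 HFD KO liver stands at 265 for Igfbp1. Before scaling, the Enho groups touched and the Fetub groups overlapped.

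The fit across 5913 genes called 0.0507% of them in HFD (3 genes, adjusted p below 0.05), and Enho was 1 of the 3, beside Falcor and Fkbp11. Of the 8 members tested, 1 was called. Enho was also the only member whose groups did not overlap, against 2.4% of all genes. Nothing is read from these counts, because the contrast was used to choose the genes. The call was lost when Ctrl-2, Ctrl-4, Ctrl-5, Ctrl-6, KO-1, KO-3, KO-4, KO-5 or KO-6 was left out. It was also lost at a pseudocount of 0.5, where the log2 difference was 1.98.

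On NCD, Enho was 11.4, 15.4, 17.1 and 6.29 in the controls and 13.9, 14.7, 27.8 and 13.5 in the KO livers. These groups overlapped, KO-4 was the one high library, and the log2 difference was 0.47 ± 0.33 (SE). The KO effect was larger on HFD than on NCD by 1.34 ± 0.42 (SE) on the log2 scale, a difference that was not called in the fit. It was called without NCD Ctrl-5, at 1.62, and without NCD KO-4, at 1.60. Enho lies on chromosome 4 (mm10, 41638144 to 41640324, - strand) in 2 exons and shares 15 exon bases with Dnaic1 on the opposite strand, listed as Dnai1 in the tables. Dnai1 read 0 to 4 across the livers.

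Fgf21 was near 0 in every liver. It was deposited at 0 to 4 in the HFD and 0 to 1 in the NCD livers, and 4 of 8 NCD and 2 of 11 HFD libraries were at 0. No fold change is given, and sequencing depth is unknown for these tables, so a difference was not detectable. Of 13 genes of the FGF21 pathway (receptors, beta-Klotho and upstream factors), 11 were tested on NCD, where 6.05% of 9426 genes were called. Ppara, the fasting-activated nuclear receptor upstream of Fgf21, rose by 0.64 ± 0.09 (SE, limma adjusted p = 0.031). The receptor gene Fgfr2 rose by 0.48 ± 0.11 (limma adjusted p = 0.044), and Fgfr3 fell by 0.46 ± 0.11 (limma adjusted p = 0.049). The other 8 were not called, and none of 8 tested was called on HFD.

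In NCD liver, Selenop differed between KO and Ctrl. Scaled values were 1149, 1210, 1378 and 1559 in the controls and 2201, 2017, 1901 and 2470 in the KO livers. Every KO liver was above every control. The means were 1324 ± 184 (SD, n = 4) and 2147 ± 248 (SD, n = 4), a fold change of 1.62 and a log2 difference of 0.70 ± 0.13 (SE). The interval of the difference was 0.41 to 0.99. Selenop was the 1 member called of 8 tested, where 6.05% of all genes were called, and it was, with Fetub, 1 of 2 whose groups did not overlap, against 19.4% of all genes tested.

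Other features of the NCD libraries are set beside this difference. Scale factors were 0.879 to 0.973 in the controls and 1.00 to 1.15 in the KO livers, without overlap. The Rn7s rows, signal recognition particle RNA, took 25 to 38.2% of the control columns and 20.3 to 23.8% of the KO columns. The summed level of 6 hepatocyte markers was 35403 to 45862 in the controls and 42770 to 56663 in the KO livers, and all 6 had a mean of at least 3 in both groups. These sums overlapped between the groups. Of the 6 markers, Cyp2e1 was higher by 0.69 ± 0.12 (SE, limma adjusted p = 0.032), while Alb was not called. The part of these features in the Selenop difference was not tested. The number of genes called on NCD ranged from 6 to 1746 over the settings tried, and Selenop lost its call when any one library other than Ctrl-5 was left out (log2 difference 0.62 to 0.73).

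On HFD, Selenop was 1148, 1027, 1173, 1086 and 1048 in the controls and 1052 to 1289, with a median of 1149, in the KO livers. The groups overlapped, and the log2 difference was 0.07 ± 0.07 (SE), with an interval of -0.09 to 0.23. The KO effect on Selenop was smaller on HFD than on NCD by 0.63 ± 0.15 (SE) on the log2 scale. It was the 1 member called of 8 tested for this difference of effects, for which 7.88% of 5863 genes were called. Without KO-6 the difference of effects was 0.61 ± 0.15 (SE) in the same direction. The call was lost without NCD Ctrl-2, Ctrl-3, Ctrl-4, KO-1 or KO-5, and with no scaling between libraries.

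Selenop lies on chromosome 15 (mm10, 3268547 to 3280508, + strand), and Ccdc152 on the opposite strand shares 439 exon bases with it. The libraries were made strand-specific, but the sources used here do not say whether the counting used strand. Ccdc152 was listed at 0 in all HFD and AML12 libraries and at 0 to 3 on NCD. The next gene along, Ghr, the growth hormone receptor, was not called on NCD (0.56 ± 0.16, SE, limma adjusted p = 0.066) or on HFD (-0.07 ± 0.07). Its KO effect was lower on HFD than on NCD by 0.63 ± 0.18 (SE, limma adjusted p = 0.049). Of 16 genes for selenoproteins and their synthesis, none of the 14 tested on NCD and none of the 12 tested on HFD was called. Their median log2 differences were 0.07 and 0.00, beside 0.03 and 0.02 over all genes.

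Fetub encodes fetuin-B, an inhibitor of the metalloproteinase ovastacin that is released by liver. On NCD it was 609.9, 656, 679 and 618 in the controls and 569, 495.5, 539 and 481 in the KO livers. These scaled groups did not overlap, yet the log2 difference of -0.30 ± 0.08 (SE) was not called, except without Ctrl-5 (-0.33). Before scaling the groups overlapped, at 536 to 638 in the controls and 505 to 621 in the KO livers. On HFD it was 115, 136, 134, 125 and 148 in the controls and 109 to 199 in the KO livers, and the groups overlapped (0.12 ± 0.15, SE). Its neighbour Ahsg, which encodes fetuin-A and lies 18885 bases away, was not called on either diet (-0.04 ± 0.08 on NCD and 0.35 ± 0.13 on HFD, SE).

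Igf1 differed little between KO and Ctrl on either diet. On NCD it was 179, 170, 169 and 199 in the controls and 194, 182.5, 157 and 189 in the KO livers. On HFD it was 125, 112, 106, 93.2 and 142 in the controls, and 95.7 to 126 with a median of 112 in the KO livers. The groups overlapped on both diets. The log2 differences were 0.01 ± 0.09 on NCD and -0.05 ± 0.11 on HFD (SE), with intervals of -0.20 to 0.22 and -0.29 to 0.19. Of 22 other genes of the growth hormone and IGF axis, 14 were tested on NCD. Stat5a, a transcription factor downstream of the growth hormone receptor, fell by 0.47 ± 0.11 (SE, limma adjusted p = 0.044) and the other 13 were not called. None of 10 tested on HFD was called.

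Igfbp1 was marked by its spread on HFD. The 5 controls lay between 33.0 and 49.5, and the KO livers were 30.4, 2.62, 37.2, 265, 12.9 and 6.85 from KO-1 to KO-6. One KO liver, KO-4, was far above all controls, 1 was within their range, and the other 4 were below all of them. The highest KO value was 101 times the lowest. The means were 40.8 ± 7.81 (SD, n = 5) and 59.2 ± 102 (SD, n = 6), while the log2 difference was -0.88 ± 0.89 (SE), so mean and log2 difference have opposite signs. Single libraries set this value: without KO-4 the log2 difference was -1.59, and without KO-2 it was -0.35. It was not called in either case.

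On NCD, Igfbp1 was low in all 8 livers, at 5.69, 2.06, 1.07 and 4.19 in the controls and 1.99, 5.89, 12.2 and 8.11 in the KO livers. These groups overlapped (0.87 ± 0.52, SE). Igfbp2, a second circulating binding protein, was 365, 317, 280 and 222 in the NCD controls and 176, 215, 321 and 209 in the KO livers (-0.37 ± 0.21, SE). On HFD it was 69.5 to 105 in the controls and 61.6 to 108 in the KO livers (0.01 ± 0.17, SE). The groups overlapped on both diets. Igfbp1 and Igfbp2 each lie beside another binding protein gene, 3540 bases from Igfbp3 and 5458 bases from Igfbp5. Of 17 insulin and fasting targets, to which Igfbp1 itself belongs as background, none of 13 tested on NCD and none of 12 tested on HFD was called.

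Angptl8 varied between livers of 1 group more than between groups. On NCD it was 142, 76.1, 42.6 and 40.9 in the controls and 65.8, 135, 152 and 30.6 in the KO livers, so that both groups held low and high livers. The log2 difference was 0.28 ± 0.58 (SE). On HFD it was 5.22, 5.68, 7.16, 4.44 and 9.90 in the controls and 2.95 to 22.04, with a median of 10.02, in the KO livers (0.59 ± 0.39, SE). The groups overlapped on both diets. Of 14 genes of the lipoprotein lipase axis, none of the 13 tested was called on NCD or on HFD. The KO effect on Apoc2, the lipase's cofactor, was lower on HFD than on NCD by 0.70 ± 0.18 (SE, limma adjusted p = 0.035).

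Lect2, a hepatokine of muscle insulin resistance and a target of beta-catenin, was 76.2, 67.9, 57.6 and 72.3 in the NCD controls and 81.7, 70.6, 64.3 and 61.3 in the KO livers (0.02 ± 0.12, SE). On HFD it was 58.3, 59.1, 55.8, 53.2 and 57.2 in the controls and 40.3 to 53.3, with a median of 48.2, in the KO livers. Those groups met at 1 point only, with the highest KO liver just above the lowest control. The log2 difference was -0.27 ± 0.09 (SE), with an interval of -0.46 to -0.08, and it was not called. Without KO-6 it was -0.29. Of 10 pericentral genes, none of the 6 tested on HFD was called.

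The genes most alike to each member were sought across the livers. Likeness was the Pearson correlation of log2 values over the libraries, taken within each diet (n = 8 on NCD and 11 on HFD) and averaged, against 2294 or 2295 genes. The libraries of a table share its scaling, and groups were not removed, so it describes these livers and has no test. Enho was most like Ang and Rnase4 (mean r 0.893 and 0.890), secreted ribonucleases encoded at 1 locus. Selenop was most like Iqgap2 (0.921) and Ttpa (0.890), the vitamin E transfer protein. Fetub followed Nnmt (0.856) and C3 (0.852), and Igfbp1 followed Lncpint (0.825) and Pim3 (0.739). Lect2 was most like Aldh1a1 (0.765) and Oat (0.726), of which Oat is on the pericentral list. The likeness was lowest for Igf1, where Rab2a came first at 0.576. Enho and Igf1 themselves ran in opposite directions on NCD (r = -0.83) and less so on HFD (r = -0.32).

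AML12 expressed few of the 9. In the 18 inducible libraries, Fgf21, Igfbp1 and Igfbp2 were listed at 0 throughout, Igf1 and Fetub at 0 to 1, and Enho at 0 to 2. In the 9 conventional libraries Fgf21 had 0 counts in all, and Igf1, Igfbp1 and Igfbp2 had 0 or 1 count each. A total of 3 counts, the limit that a count of 0 allows, came to 0.339 to 0.67 CPM (the count as a share of the library total) over these libraries, for counting error only. The hepatocyte markers were present at low level, with 5 of 6 at a mean of at least 3 CPM in the conventional controls. Cholangiocyte markers were present too, with 4 of 5 at that level, while endothelial markers were at 0 in every inducible library.

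Selenop moved with the state of the inducible lines. It was deposited at 733, 770 and 724 in the control line without Dox and at 973, 1006 and 1011 in the Falcor hairpin line. With Dox it was 402, 401 and 411 in the control line and 219, 214 and 214 in the Falcor hairpin line. In the Restored state it was 386, 387 and 389 in the control line and 894, 861 and 894 in the Falcor hairpin line. No groups overlapped within a state, and the order of the lines was the same without Dox and in the Restored state but was turned with Dox. The log2 differences were 0.23 ± 0.03 without Dox, -0.90 ± 0.03 with Dox and 1.03 ± 0.03 in the Restored state (SE).

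In the control line Selenop was lower with Dox by 0.85 on the log2 scale (-0.85 ± 0.03, SE), and the Restored libraries lay just below those with Dox. In the Falcor hairpin line it fell by 1.99 ± 0.03 (SE, log2) with Dox. The difference between those responses was -1.14 ± 0.04 (SE, log2). Within each state the summed level of the hepatocyte markers had the same order of lines as Selenop, at 523 to 572 against 1167 to 1218 without Dox, 740 to 760 against 449 to 458 with Dox and 637 to 652 against 1378 to 1417 in the Restored state, control line first. Alb, a marker in that sum, went the other way without Dox, at means of 62.7 in the control and 44.1 in the Falcor hairpin line. With Dox its means were 93.7 and 34.4. In the control line the marker sum was higher with Dox than without, while Selenop was lower. Its part in the Selenop differences was not tested.

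**Figure D2:**
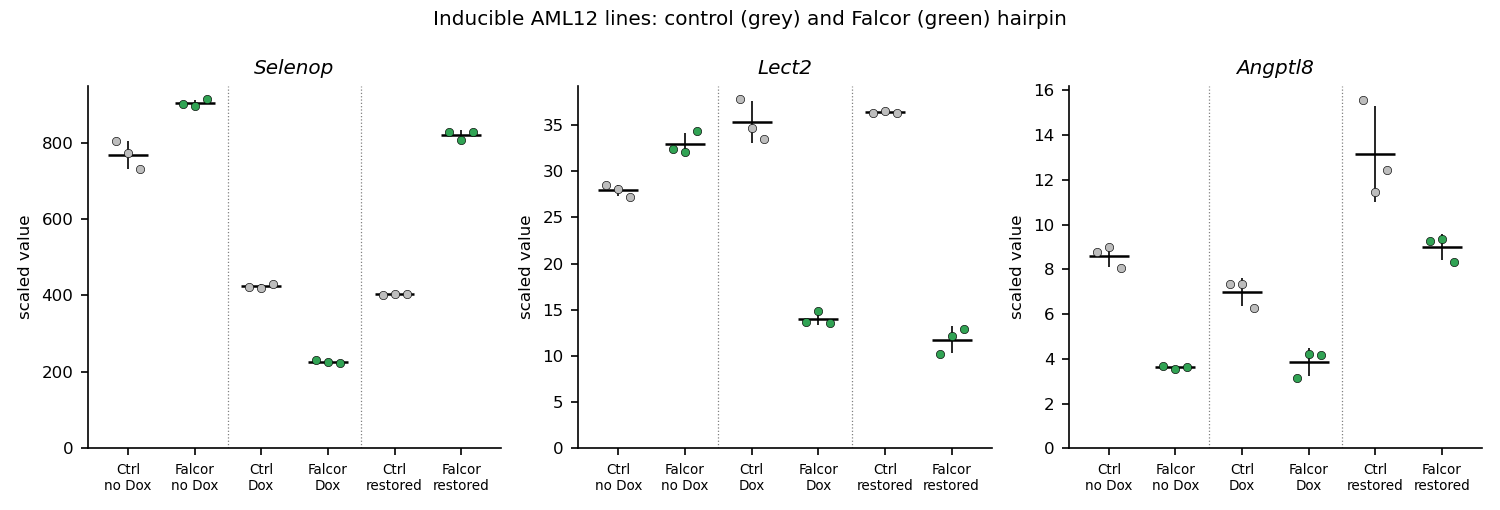
Scaled values (y axis, linear) of Selenop, Lect2 and Angptl8 in the inducible AML12 lines with a control (grey) or Falcor (green) hairpin without Dox, with Dox and in the Restored state; points are libraries, lines are means and bars 1 SD (n = 3). Selenop is lower in the Falcor line with Dox only, Lect2 with Dox and in the Restored state, and Angptl8 in all 3 states.

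Lect2 followed another course. Without Dox it was 26, 28 and 27 in the control line and 35, 36 and 38 in the Falcor hairpin line. With Dox it was 36, 33 and 32 against 13, 14 and 13, and in the Restored state 35, 35 and 35 against 11, 13 and 14. Lect2 was thus low in the Falcor hairpin line with Dox and in the Restored state, when Falcor itself read 9 to 11. The log2 differences were 0.23 ± 0.07, -1.27 ± 0.07 and -1.55 ± 0.07 (SE) without Dox, with Dox and Restored. The response to Dox differed between the lines by -1.50 ± 0.10 (SE, log2).

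Angptl8 was lower in the Falcor hairpin line in each state. It was 8, 9 and 8 against 4, 4 and 4 without Dox, 7, 7 and 6 against 3, 4 and 4 with Dox, and 15, 11 and 12 against 10, 10 and 9 in the Restored state. The groups did not overlap in any state. The log2 differences were -1.05 ± 0.11, -0.72 ± 0.11 and -0.49 ± 0.11 (SE). The difference was thus present before induction, and Dox did not enlarge it: the responses of the lines to Dox differed by 0.33 ± 0.15 (SE, log2), which was not called. Values this low were rounded to whole numbers in the deposited table, so replicates share values and the SE is too small.

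All 3 members tested were called in each of these line differences, and in each the lines did not overlap for any of the 3. Lines without overlap were found for 64.2% of all genes with Dox, 66.2% without Dox and 70.5% in the Restored state. The share of all 9840 genes called was 52.5% with Dox, 65.3% without Dox and 57.9% in the Restored state, so a call is the common outcome there. Replicates of the inducible groups lay close together, with a median variance over mean of 0.045 to 0.29. Whether they are separate cultures is not stated, so the SE and p-values of this set may measure technical spread only. For the responses to Dox, 3 of 3 were called in the control line (66.5% of all genes), 2 of 3 in the Falcor hairpin line (74.2%) and 2 of 3 for the difference of the responses (65% of all genes). Of 10 genes of the FGF21 pathway tested, 8 were higher and 2 lower in the Falcor hairpin line without Dox, 1 higher and 6 lower with Dox, and 7 higher and 2 lower in the Restored state. Atf4, a stress factor upstream of Fgf21, differed by -0.93 ± 0.04 without Dox, 0.28 ± 0.04 with Dox and -0.94 ± 0.04 in the Restored state (SE, limma adjusted p = 5.1e-12, 2.6e-05 and 4.6e-12), while Fgf21 was listed at 0. Klb, which encodes beta-Klotho, also turned with Dox, at 1.46 ± 0.15, -0.74 ± 0.15 and 1.47 ± 0.15 (SE, limma adjusted p = 2.3e-07, 5e-04 and 2.6e-07).

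Of 15 genes for selenoproteins and their synthesis tested, 2 were higher and 8 lower in the Falcor hairpin line without Dox, 2 higher and 5 lower with Dox, and 3 higher and 7 lower in the Restored state. Their median log2 differences were -0.26, -0.11 and -0.08, beside -0.02, 0.00 and -0.02 over all genes. Sephs2, which makes the selenium donor, differed by -0.26 ± 0.03 without Dox, -0.47 ± 0.03 with Dox and -0.01 ± 0.03 in the Restored state (SE, limma adjusted p = 4.4e-06, 8.8e-09 and 0.83). In the lipoprotein lipase axis, 3, 2 and 2 of 8 tested were higher and 3, 6 and 2 lower in these states. Angptl4, a fasting-induced lipase inhibitor, was higher by 0.66 ± 0.10 without Dox, lower with Dox (-1.11 ± 0.10) and at 0.00 ± 0.10 in the Restored state (SE, limma adjusted p = 2.3e-05, 1.2e-07 and 0.99). Of 14 genes of the IGF axis tested, 7, 3 and 2 were higher and 4, 3 and 4 lower. Jak2, the growth hormone receptor kinase, differed by 0.91 ± 0.09, -0.43 ± 0.09 and 0.02 ± 0.09 (SE, limma adjusted p = 8.5e-08, 0.00049 and 0.89). Igf1r, the receptor, differed by -0.08 ± 0.08, 0.40 ± 0.08 and 0.07 ± 0.08 (SE, limma adjusted p = 0.39, 0.00063 and 0.50).

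With conventional hairpins, Enho was higher after either knockdown. It had 16, 14 and 11 counts with shCtrl, 37, 26 and 65 with shFalcor and 74, 35 and 46 with shZC3H11A. Total counts were 4474760 to 8837581 per library. On the CPM scale the means were 2.05 ± 0.386, 6.26 ± 0.933 and 8.66 ± 1.38 (SD, n = 3 each), and both knockdowns were above all controls. The log2 differences from shCtrl were 1.61 ± 0.29 for shFalcor and 2.11 ± 0.28 for shZC3H11A (SE, edgeR). The knockdowns share their controls, so these are not independent. The direct difference between them was -0.50 ± 0.25 (SE, log2; 95% interval -1.03 to 0.03) and was not called.

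**Figure D3:**
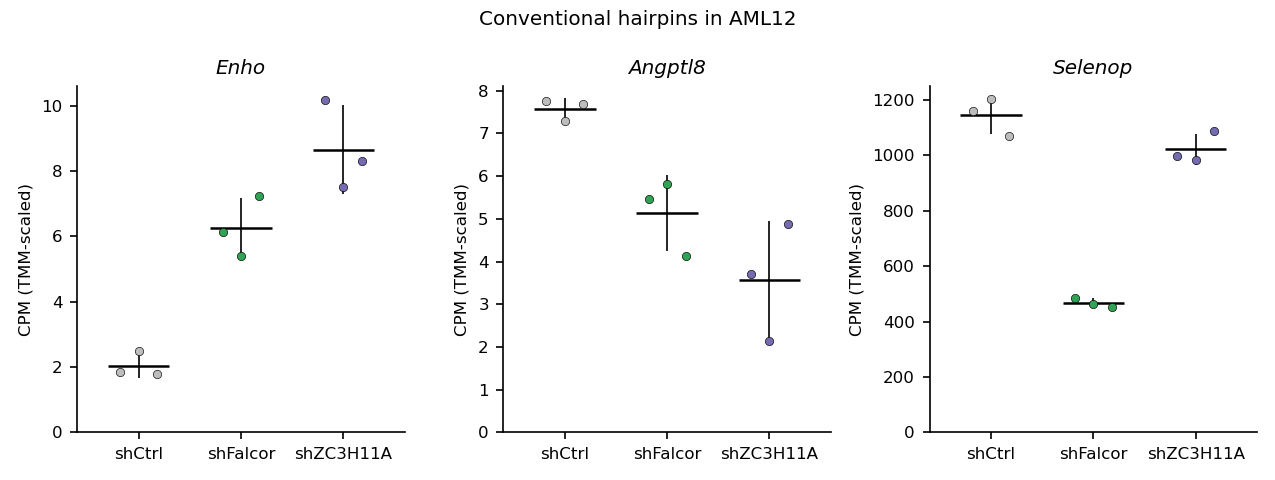
CPM after TMM scaling (y axis, linear) of Enho, Angptl8 and Selenop in AML12 with conventional shCtrl, shFalcor or shZC3H11A hairpins; points are libraries, lines are means and bars 1 SD (n = 3). Enho is above the controls after both knockdowns, and Selenop is low with shFalcor, near 467 CPM, only.

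Selenop set the knockdowns apart. It had 10035, 6750 and 6532 counts with shCtrl, 2925, 2234 and 4059 with shFalcor and 7237, 4586 and 6024 with shZC3H11A. The CPM means were 1144 ± 68.2, 467 ± 16.2 and 1022 ± 56.4 (SD, n = 3 each). With shFalcor all libraries were below all others. The log2 differences from shCtrl were -1.31 ± 0.06 for shFalcor and -0.15 ± 0.06 for shZC3H11A (SE), and the direct difference was -1.16 ± 0.06 (SE). The second of these was not called, except without Ctrl-3 (-0.19) or without Zc-3 (-0.18).

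Angptl8 had 67, 41 and 47 counts with shCtrl, 33, 28 and 37 with shFalcor and 27, 10 and 27 with shZC3H11A. Both knockdowns were below all controls in CPM, at means of 7.58 ± 0.245, 5.14 ± 0.891 and 3.58 ± 1.37 (SD, n = 3 each). The log2 difference was -0.60 ± 0.28 (SE) with shFalcor, not called, and -1.05 ± 0.29 (SE) with shZC3H11A, called. The direct difference was 0.45 ± 0.30 (SE, 95% interval -0.19 to 1.09). Angptl8 lies inside Dock6 on the opposite strand (chromosome 9, 21835510 to 21837347, mm10), sharing no exon bases, and Dock6 was not called with either knockdown (0.07 ± 0.21 and -0.38 ± 0.22, SE).

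Lect2 and Fetub were too low for the fit. Lect2 had 5, 2 and 5 counts with shCtrl, 10, 3 and 14 with shFalcor and 0, 0 and 4 with shZC3H11A. Fetub had 0, 0 and 2 counts with shCtrl, 7, 10 and 3 with shFalcor and 2, 5 and 10 with shZC3H11A. The Lect2 groups overlapped between shCtrl and shFalcor, and a difference was not detectable at this depth. The Fetub groups with shFalcor and shCtrl did not overlap, but they nearly met. L30-3 with shFalcor had 3 counts (0.335 CPM) and Ctrl-3 had 2 counts (0.327 CPM). Groups without overlap were found for 60.1% of all genes tested in that comparison.

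Among 11871 genes tested, 51.5% were called with shFalcor, 48.5% with shZC3H11A and 56.9% between the knockdowns. Of the 3 members tested, 2, 2 and 1 were called in these comparisons. Groups did not overlap for 3, 2 and 2 of them, against 60.1%, 55.7% and 62.3% of all genes. The hepatocyte marker sum was 338 to 383 CPM with shCtrl, 71.6 to 82.8 with shFalcor and 414 to 630.2 with shZC3H11A. Alb, a marker in that sum, was called lower with both knockdowns, also with shZC3H11A, where the sum was higher. The macrophage marker sum was 3.44 to 5.32, 48.6 to 51.5 and 5.23 to 8.58 CPM, with 1 of 7 markers at a mean of at least 3. The part of these in the differences of Selenop, Enho and Angptl8 was not tested.

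Other IGF binding protein genes were tested in AML12. Igfbp4 fell by 2.20 ± 0.07 with shFalcor (SE, edgeR adjusted p = 1.8e-13) and by 1.05 ± 0.07 with shZC3H11A (edgeR adjusted p = 8.1e-10). Igfbp7 fell by 1.45 ± 0.06 (edgeR adjusted p = 3.2e-12) and by 0.62 ± 0.06 (edgeR adjusted p = 1.3e-07). Igfbp3, the neighbour of Igfbp1, rose by 1.73 ± 0.44 (SE, edgeR adjusted p = 0.0033) and by 1.95 ± 0.44 (edgeR adjusted p = 0.0014), while Igfbp1 had at most 1 count. Over the whole IGF axis, 4 of 14 tested rose and 7 fell with shFalcor, and 3 rose and 7 fell with shZC3H11A. Of 6 genes tested from a list linked to adropin (clock and nuclear receptor genes and Gpr19, its proposed receptor), Arntl rose with shFalcor by 0.90 ± 0.13 (SE, edgeR adjusted p = 1.4e-05) and the other 5 were not called. With shZC3H11A, Arntl rose by 1.12 ± 0.13 (SE, edgeR adjusted p = 1.1e-06), 4 fell and 1 was not called.

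Side by side, Enho was higher in the HFD KO livers (1.81) and with both conventional hairpins (1.61 and 2.11), and at 0 to 2 in the inducible lines, where no difference could be seen. Selenop was higher in the NCD KO livers (0.70) and lower with the conventional (-1.31) and the induced Falcor hairpin (-0.90). Its direction thus differed between the NCD KO livers and these Falcor hairpins in AML12. With shZC3H11A, Falcor itself was lower (-2.17), while Selenop was not called (-0.15). In the inducible control line Selenop fell with Dox (-0.85), while Falcor was not called (-0.06). Whether Selenop follows Falcor in AML12 was not tested. Angptl8 was lower in the inducible Falcor hairpin line in all 3 states, also before induction (-1.05). With conventional shFalcor its difference was not called (-0.60), and in liver it spread widely.

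**Figure D4:**
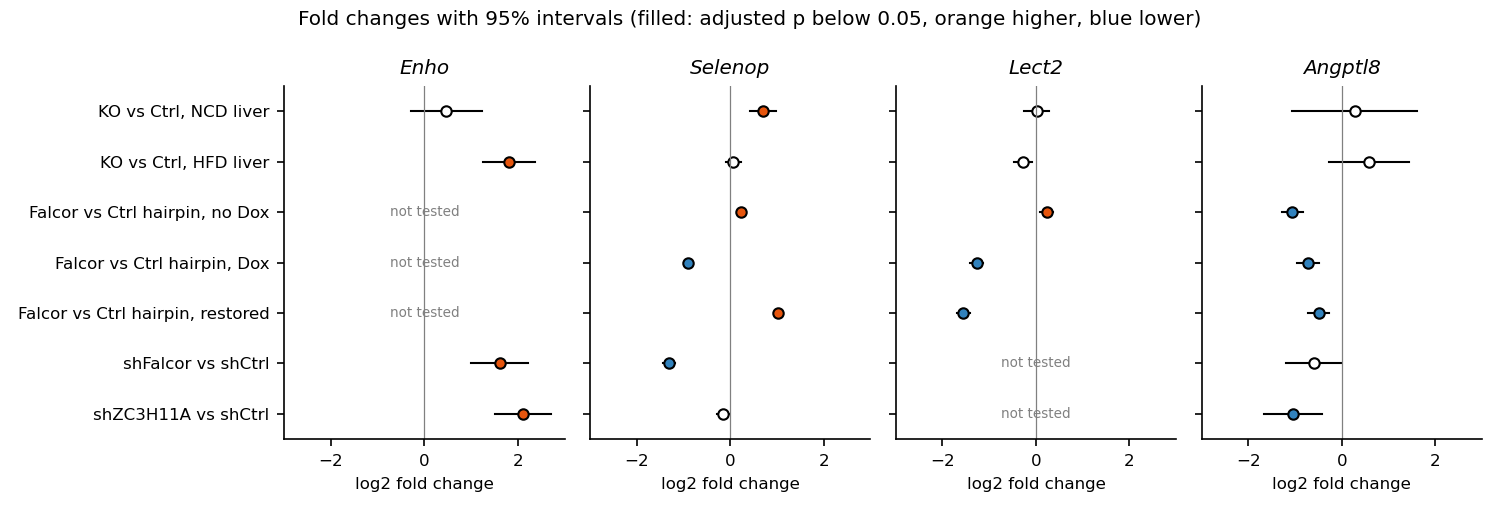
Log2 fold changes (x axis) of Enho, Selenop, Lect2 and Angptl8 with 95% intervals in 7 comparisons; filled points have an adjusted p below 0.05 over all genes (orange higher, blue lower), open points do not. Selenop runs from 1.03 in the Restored state to -1.31 with shFalcor, and Enho is above 0 wherever it was tested, with the NCD interval reaching below 0.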

How the data were processed

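RNA sequencing gave 19 libraries of mouse liver and 27 of AML12, ribosomal RNA-depleted and strand-specific, as the labels' protocols state. Kallisto, DESeq2 and mm10 appear in the submitters' processing notes without roles. Deposited counts were used for the conventional hairpins. The other 3 tables hold whole numbers summing to 833910 to 975752 per column, which were treated as a score, since no source names their unit. They look like rounded, length-scaled values of a common total, so their depth is unknown. Counts were tested with edgeR 4.0.16 (filterByExpr, trimmed mean of M-values (TMM) scaling, quasi-likelihood test), and deposited scores with limma 3.58.1 (R 4.3.3) on log2(value + 1) after TMM scaling, for genes with a mean of at least 3, in place of the count model. Such fold changes understate low genes. All groups of a table shared 1 fit, apart from the livers, which form a table per diet. The KO effects of the diets were compared by the difference of their estimates with Welch-Satterthwaite degrees of freedom. In each of 12 comparisons the Benjamini-Hochberg adjustment covered all genes tested, and a gene with an adjusted p below 0.05 was called. Models were tested on simulated data.

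The 9 genes and the pathway and marker lists were chosen with earlier results of these data known. All 9 are named, with Falcor and Zc3h11a, up to 4 called genes with the smallest p per list, and the 2 genes most alike by correlation. Overlapping and neighbouring genes and Fkbp11 were added after their values were seen. Positions are from GENCODE for mm10, promoters from RefSeq. Of the liver control columns, 4 have names that also match a cell line label, so they were mapped to their group only. The alternatives tried were the pseudocount, the filter, the scaling, DESeq2 1.42.0 for counts, the groups in the fit, the replicate block and each library left out. A few genes that the naming rule gives are not reported here.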

Additional observations from a re-analysis of the deposited data

Results flagged for a closer look

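Among 36 combinations of a gene and a liver group, 4 had a library far from the others of its group, judged by the gap to the nearest library as a share of the group's range. The nominal rate of this rule is about 1 in 20, which was not tested here. That rate cannot be applied to whole numbers of 0 or 1, as for Fgf21. Enho in NCD KO-4 stood at 27.8 (share 0.916). Igfbp1 in HFD KO-4 stood at 265 (share 0.868). Fgf21 was flagged in the NCD controls, where Ctrl-2 alone was deposited at 1 and the others at 0 (share 1), and in the NCD KO livers, where KO-5 alone was at 0 (share 0.872). Both Fgf21 cases are differences of 1 unit.

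The effects that follow differed between conditions when the difference itself was fitted. The KO effect on Selenop was lower on HFD than on NCD by 0.63 on the log2 scale (-0.633). The effect of the Falcor hairpin changed from no Dox to Dox by -1.14 for Selenop and by -1.50 for Lect2. For that change 65% of all genes were called. The Selenop difference between diets lost its call without some single NCD libraries and with no scaling, as given above. Both genes were chosen with the contrasts of these libraries known, so these values are a description.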

How the results depend on the processing

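No called value changed sign under any alternative, and 822 of 858 fold changes kept their side of the threshold. Of 189 counts of called genes among the 9, 155 stayed the same or close. A change between 2 and 3 was taken as close. On HFD the 1 call, Enho, fell to 0 at a pseudocount of 0.5, with a filter at a mean of 10 (where Enho was not tested), and under both scalings added after seeing the data, which set aside the 5 most abundant rows (the 3 identical rows and 2 Rn7s rows). Leaving out single libraries gave 0 to 1 calls on HFD, 0 to 2 on NCD, 0 to 2 for the difference of KO effects between diets, 2 to 4 for shZC3H11A and 1 to 2 between the conventional knockdowns. The difference of KO effects also had 0 calls with no scaling between libraries, and the knockdowns differed in 2 genes with no filter. The cause of these changes was not tested. Over all genes, 3 were called on HFD (0 to 29 over the alternatives), 570 on NCD (6 to 1746) and 462 for the difference of KO effects (51 to 1166). In the inducible table, the Angptl8 response to Dox in the control line (-0.27) lost its call with no filter and without any of 3 libraries. Same-numbered AML12 libraries did not deviate together in most pairs (median r 0.03 in the inducible and 0.04 in the conventional set). With the replicate block, the counts of members called were 3, 3, 3, 2, 3 and 2 in the inducible comparisons and 2, 2 and 1 in the conventional ones, as without it. No paired analysis was possible for the livers because the labels give no pairing of KO and Ctrl livers. In addition, 4 control columns have names that also match cell line labels, so they were mapped to their group and to no single numbered sample. Fgf21, Igf1, Igfbp1, Igfbp2 and Fetub were too low in AML12 for the fit, so no fold change is given for them there.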
